A study of Patiria miniata with 46 samples.

Results

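The last 3 proximo-distal sections of a sea star arm, sections 20, 21 and 22, were compared with the 4 sections that precede them, sections 16, 17, 18 and 19. These 7 libraries were chosen by their position in the 22-section proximo-distal series, out of 46 libraries in the whole study. The animals were juvenile bat stars, Patiria miniata, with no genotype, treatment or control group named in the labels. An arm was frozen and cut crosswise into serial cryosections, and polyadenylated RNA was sequenced from each section. The proximo-distal series and an 8-section oral-aboral series came from specimen 1, and a 16-section left-right series came from specimen 2. Each position was sampled once, so the sections of a group are neighbouring positions in 1 arm and not replicates, and every p-value measures the spread between these sections only. The labels do not say whether section 22 lies at the arm tip or at the disc, so positions are given by section number. In such bulk sections, fewer cells of a type and less RNA per cell cannot be told apart.

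A sea star arm holds gut pouches, coelom, skeleton, muscle, tube feet and a radial nerve cord, and at its tip a terminal tentacle with an eyespot. The genes that the file names by symbol are mostly transcription factors and signals that pattern the body axes of bilaterian embryos. Wnt ligands are secreted signals that bind Frizzled receptors, and secreted Frizzled-related proteins bind Wnts outside the cell. In vertebrates and hemichordates, Hox genes and several Wnts mark the trunk. Genes used in more anterior regions include Emx, FoxG, Fzd5-8, Irx, Nkx2.1, Otx, Sfrp1-5 and Six3-6. Lists of symbols for nervous system, muscle, skeleton and germ cells matched 0 of the named rows, so the tissue make-up of the sections was not checked by those markers. The sequences of the named genes were not used here.

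Total counts were 424704, 671173 and 308152 in sections 20, 21 and 22, against 515371, 680685, 375490 and 325335 in sections 16, 17, 18 and 19. A single unnamed locus, V4_HAP1_PB.21421, held 17.4%, 13.4% and 12.2% of all counts in sections 20, 21 and 22, against 49.6%, 42.7%, 32.9% and 21.1% in sections 16, 17, 18 and 19. Its share averaged 14.4% ± 2.73 over sections 20 to 22, against 36.6% ± 12.4 over sections 16 to 19 (SD, n = 3 and n = 4), a difference of -22.2 percentage points. The groups did not overlap, and the two-sided exact permutation p was 0.0571, the smallest that 3 sections against 4 can give. Across the whole series the share was between 0.453% and 2.16% in sections 1 to 11, reached 50.3% in section 15 and was lower in each following section. The exact 95% binomial interval, which covers counting error only, was 12.1% to 12.3% in section 22 and 49.5% to 49.7% in section 16. This locus was left out before the libraries were scaled. After that, 17662, 18911 and 16620 loci had at least 1 count in sections 20, 21 and 22, against 16279, 16830, 15749 and 16093 in sections 16, 17, 18 and 19. A count of 0 allowed up to 8.87, 5.04 and 10.6 CPM (counts per 1000000 of the scaled library) in sections 20, 21 and 22, against 13.2, 8.78, 13.7 and 12.8 CPM in sections 16, 17, 18 and 19, at 3 counts per library.

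The boundary between the groups was not the largest step in the series, and the step from section 18 to section 19, inside the group of neighbours, was larger than it. Section 20 lay nearer to section 19 than to section 21: the chi-square per degree of freedom over loci was 3.27 between sections 19 and 18, 2.17 between sections 20 and 19, 5.53 between sections 21 and 20, and 2.84 between sections 22 and 21. Among loci averaging at least 100 CPM, the median absolute log2 difference was 0.36 from section 18 to section 19, 0.28 from section 19 to section 20 and 0.42 from section 20 to section 21. Counting error alone would give 0.22, 0.20 and 0.17 for these steps. The share of those loci that differed by more than 2-fold was 9.40% from section 18 to section 19, 4.08% from section 19 to section 20, 15.3% from section 20 to section 21 and 13.5% from section 21 to section 22. Results are therefore given with section 20 and, where the call depends on it, without it. Calls that also depend on section 19 or on another section are named as such.

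**Figure D1:**
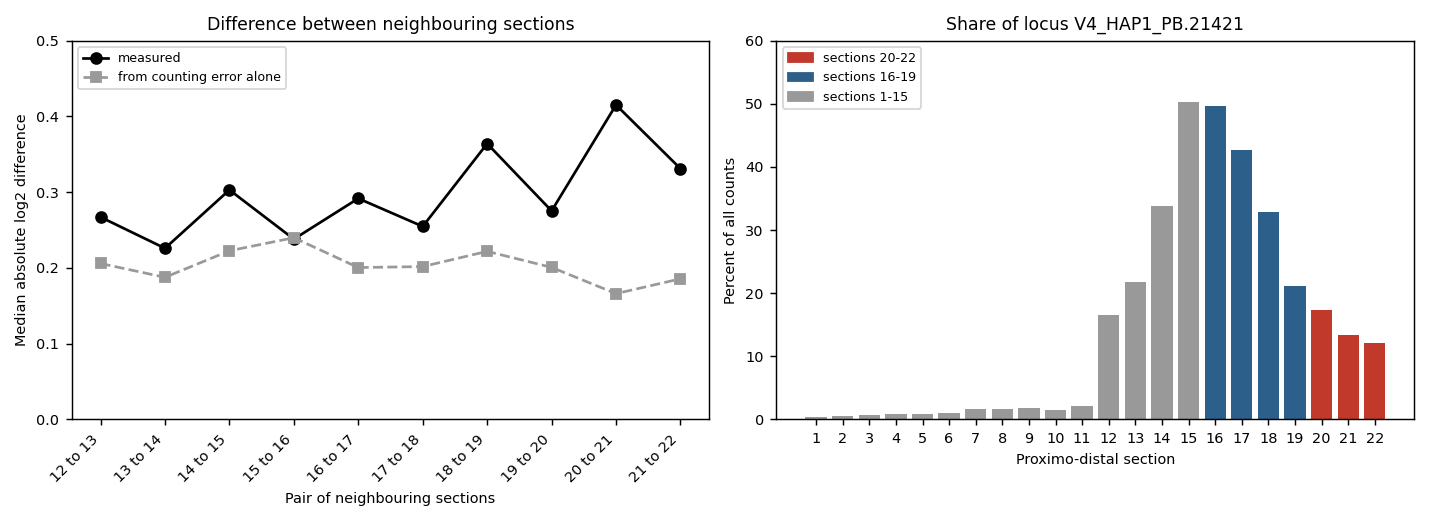
Left, the median absolute log2 difference between neighbouring proximo-distal sections for loci averaging at least 100 CPM (black), with the value that counting error alone would give (grey); the step from 18 to 19 is 0.36, that from 19 to 20 is 0.28 and that from 20 to 21 is 0.42. Right, the share of all counts held by V4_HAP1_PB.21421 in each of the 22 sections, which is highest in section 15 at 50.3% and is 12.2% in section 22.

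Of 9499 loci tested with edgeR's quasi-likelihood test, 488 (5.14%) differed between sections 20 to 22 and sections 16 to 19 at an adjusted p under 0.05. Of these, 289 rose (3.04% of those tested) and 199 fell (2.09%), so 59.2% of the calls were upward. The split depends on the scaling: scaling by total count alone, with PB.21421 left out, gave 562 up and 157 down (78.2% upward) and moved the median log2 change of all loci tested to 0.20, against -0.02 with TMM. Keeping PB.21421 in the totals, without TMM, gave 2235 up and 139 down (94.1% upward) with a median of 0.69. No locus called with TMM changed sign under either scaling. The median log2 change was 2.12 among loci that rose and -2.40 among loci that fell. Of the 289 that rose, 84 had no section of 16 to 19 over the low-count filter, and of the 199 that fell, 69 had no section of 20 to 22 over it. Such loci were tested only because they were high in 1 group, so they could be called in 1 direction only. The 3 sections 20 to 22 lay above all of sections 16 to 19 for 1002 loci (10.5% of those tested) and below all of them for 815 (8.58%).

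The 289 loci that rose held 2.78%, 5.56% and 7.18% of normalised counts in sections 20, 21 and 22, against 1.29%, 1.27%, 1.22% and 1.23% in sections 16, 17, 18 and 19. The 199 that fell held 1.24%, 0.708% and 0.517% in sections 20, 21 and 22, against 5.03%, 4.99%, 4.22% and 2.17% in sections 16, 17, 18 and 19. Both sums are given as descriptions, since the loci were picked by the same contrast. Among the loci that rose, 216 had their highest value in section 22, 67 in section 21 and 6 in section 20. Among those that fell, 143 were lowest in section 22, 40 in section 21 and 16 in section 20, and 58 had 0 counts in section 22.

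Outside the 7 libraries, the 2 sets had unlike profiles along the arm. The median level of the loci that rose, on the log2(CPM + 1) scale over sections, was 3.97 in sections 1 to 11, 4.53 in sections 12 to 15, 4.68 in sections 16 to 19 and 7.05 in sections 20 to 22. For the loci that fell it was 3.58 in sections 1 to 11, 6.42 in sections 12 to 15, 6.86 in sections 16 to 19 and 4.18 in sections 20 to 22. All loci tested stayed between 5.37 and 5.59 by the same measure. Of the loci that rose, 278 (96.2%) had their highest value of the 22 sections in sections 20 to 22 and 11 (3.81%) in sections 1 to 11. Of those that fell, 115 (57.8%) peaked in sections 16 to 19, 52 (26.1%) in sections 12 to 15 and 32 (16.1%) in sections 1 to 11. Over all loci tested, 24.3% peaked in sections 20 to 22, 22.9% in 16 to 19, 13.8% in 12 to 15 and 39.0% in 1 to 11. Peaks within sections 16 to 22 largely follow from the choice of loci, which used those sections. The median of the loci that fell was thus high in a zone from section 12 to section 19 and lower on both sides of it.

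**Figure D2:**
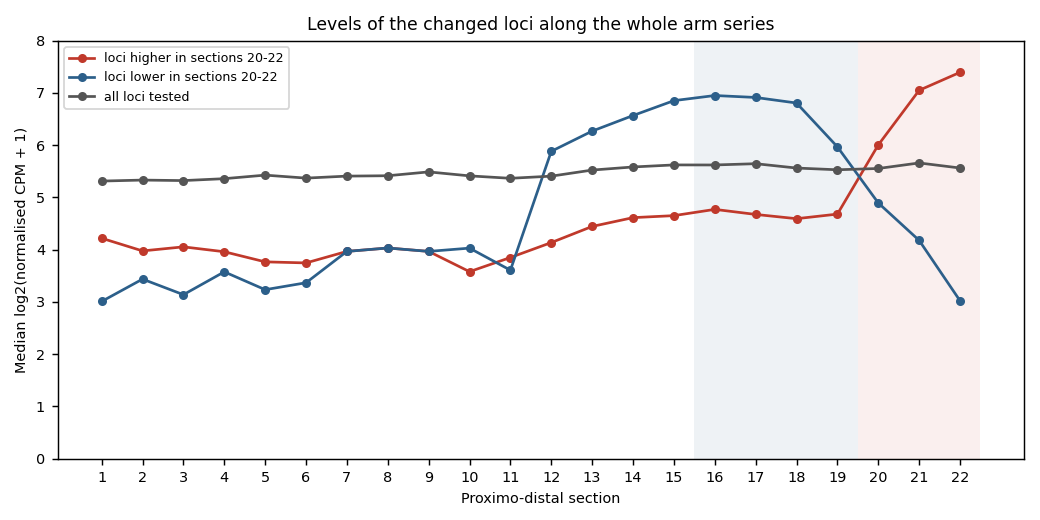
Median log2(normalised CPM + 1) in each of the 22 proximo-distal sections for loci that rose (red), loci that fell (blue) and all loci tested (grey); the pink band marks sections 20 to 22 and the blue band sections 16 to 19. The blue line lies high from section 12 to section 19 and the red line rises after section 19, while the grey line stays between 5.3 and 5.7.

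The other 2 series were sectioned along other axes of the arm and gave values that the choice of loci did not use. In the oral-aboral series, from the same specimen, the median log2 difference of the inner sections 3 to 6 over the outer sections 1, 2, 7 and 8 was 1.47 for the loci that rose, 1.58 for the loci that fell and -0.01 for all loci tested. More than 2-fold higher inner levels were seen for 58.5% of the loci that rose, 58.3% of those that fell and 14.5% of all loci tested. In the left-right series, from specimen 2, the central sections 6 to 11 over the outer ones gave medians of 0.40 for the loci that rose, 0.37 for those that fell and 0.12 for all loci tested. More than 2-fold higher central levels were seen for 24.6%, 9.55% and 7.45% of these sets. These are descriptions over loci of shared libraries, with no test.

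The file names 66 genes by symbol, plus a row labelled as overlapping Wnt7. Of these 67 rows, 38 passed the low-count filter, 7 rose and 3 fell, against 3.04% and 2.09% of all loci. Those that rose were Irx, Nkx2.2, Fzd5-8, FoxG, Sfrp1-5, Lmx and Hox1, and those that fell were Wnt3, Hox8 and Tbx2-3. The other 28 tested genes did not pass. FoxG met the low-count filter only in sections 20 to 22, and Wnt3, Hox7 and Otx only in sections 16 to 19, so the choice of loci tested fixed the direction of these 4.

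Of the 7 named genes that rose, 4 were in the anterior patterning list, which held 11 of the 38 named genes tested. FoxG, 1 of these 4, was tested through sections 20 to 22 alone. Irx, an Iroquois homeobox factor used in neural patterning in vertebrates, had 284, 527 and 562 CPM in sections 20, 21 and 22, against 102, 84.9, 95.9 and 93.7 CPM in sections 16, 17, 18 and 19. The mean was 458 ± 152 CPM over sections 20 to 22, against 94.0 ± 6.91 CPM over sections 16 to 19 (SD, n = 3 and n = 4). The log2 change was 2.28 ± 0.29 (SE, edgeR adjusted p = 0.00264), and the groups did not overlap. All of sections 16 to 19 lay close together, section 20 was intermediate and sections 21 and 22 were high. Outside this stretch Irx averaged 114 ± 19.5 CPM in sections 1 to 11 and 117 ± 15.4 CPM in sections 12 to 15, so none of the first 19 sections reached the lowest of the last 3.

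FoxG, a forkhead factor of the vertebrate forebrain, had 35.5, 58.8 and 45.96 CPM in sections 20, 21 and 22, against 0, 2.93, 13.7 and 17.0 CPM in sections 16, 17, 18 and 19. These levels rest on 12, 35 and 13 counts in sections 20, 21 and 22, against 0, 1, 3 and 4 counts in sections 16, 17, 18 and 19. The log2 change was 2.53 ± 0.60 (adjusted p = 0.0305), with all 3 end sections above the 4 others. None of sections 16 to 19 met the low-count filter, so the gene was tested through the end sections alone and its rise carries no weight as a count. The call was lost without section 16 (adjusted p = 0.0844), 17 (0.125), 18 (0.0716) or 21 (0.163).

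The remaining 2 anterior genes act in Wnt signalling. Fzd5-8, a Frizzled receptor, had 70.9, 159 and 74.2 CPM in sections 20, 21 and 22, against 17.7, 23.4, 27.4 and 12.8 CPM in sections 16, 17, 18 and 19, a log2 change of 2.33 ± 0.41 (adjusted p = 0.00912). Section 21 was highest and the groups did not overlap. Without section 21 the change was 1.82 and did not pass (adjusted p = 0.0672). With the log2 library total as covariate it was 1.84 and did not pass either (adjusted p = 0.0524). Sfrp1-5, a secreted Wnt antagonist, had 322, 438 and 739 CPM in sections 20, 21 and 22, against 159, 173, 187 and 268 CPM in sections 16, 17, 18 and 19. It rose with a log2 change of 1.34 ± 0.32 (adjusted p = 0.0339), highest in section 22 and without overlap. That call was lost when section 16, 17, 18, 21 or 22 was left out, with log2 changes between 0.96 and 1.57 over the 7 such fits and adjusted p up to 0.130.

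In the anterior list as a whole, 20 of 22 genes matched a named row and 11 were tested. Of these, 4 rose and 0 fell, against 3.04% and 2.09% of all loci tested; the median log2 change was 0.73, against -0.02 over all loci tested. Of the 9 that met the low-count filter in both groups, 3 rose. The rises were 2 without section 16, 17 or 18, 3 without section 22, 1 without section 21, and 4 without section 19 or 20. With the log2 library total as covariate, 1 gene of the list rose. The members that did not pass include Otx, a head and eye field homeobox factor, with 8.87, 8.39 and 0 CPM in sections 20, 21 and 22, against 4.41, 29.3, 22.8 and 46.8 CPM in sections 16, 17, 18 and 19 (log2 change -1.96 ± 0.74, adjusted p = 0.142). Nkx2.1 had 106, 190 and 262 CPM in sections 20, 21 and 22, against 229.5, 141, 160 and 119 CPM in sections 16, 17, 18 and 19, and the groups overlapped. Otx met the low-count filter only in sections 16 to 19, so its direction was fixed by entry to the test. Of the 11 tested genes of this list, 7 did not pass.

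**Figure D3:**
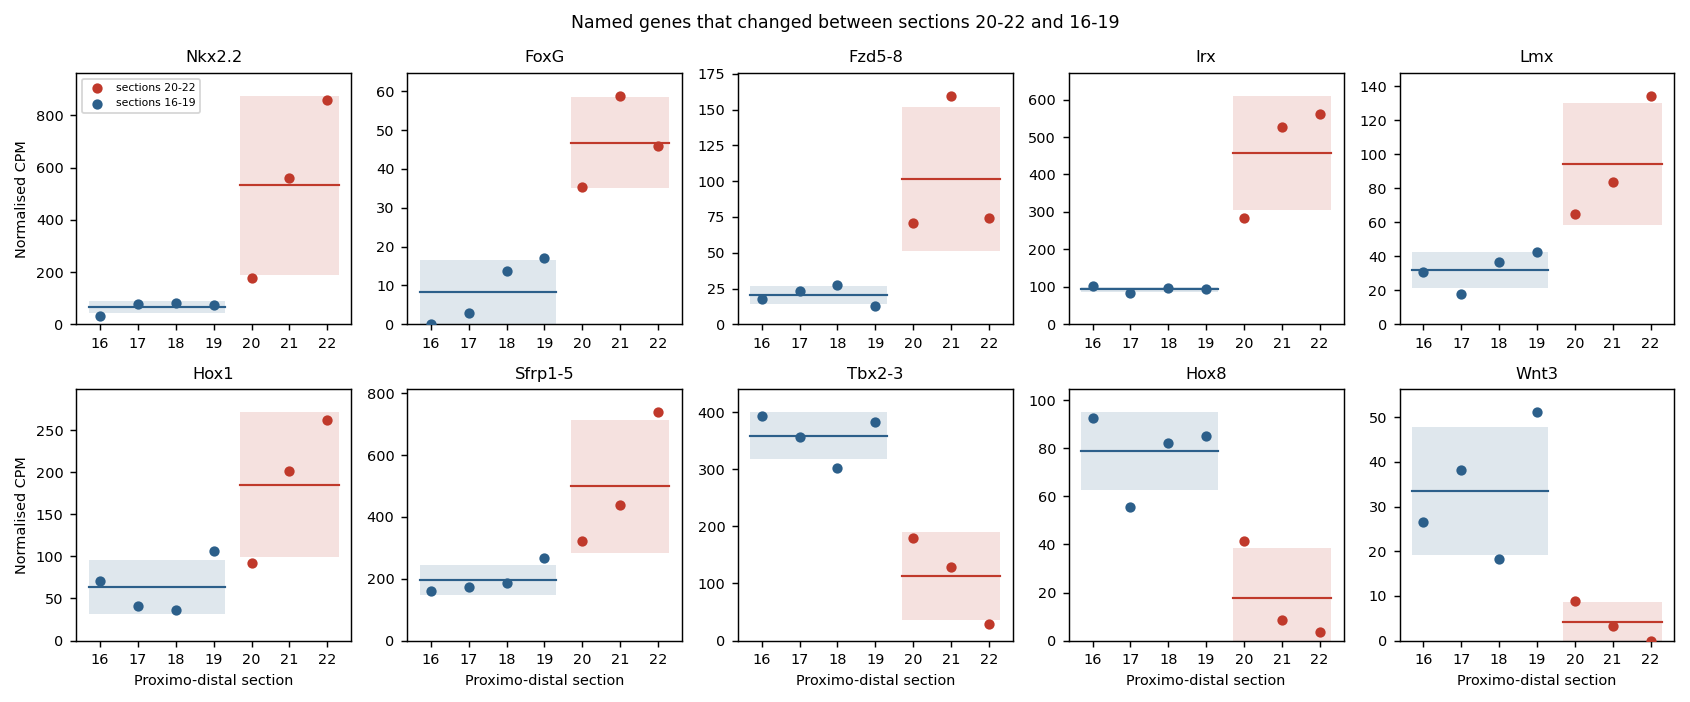
Normalised CPM in sections 16 to 22 of the 10 named genes that passed the test; red points are sections 20 to 22, blue points sections 16 to 19, and lines and bands give each group's mean and SD. In 9 of the panels the groups do not overlap, against 276 of all 289 loci that rose and 188 of all 199 that fell. In the panel of Hox1, section 19 at 106 CPM lies above section 20 at 91.6 CPM.

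Nkx2.2, a homeobox factor of the ventral neural tube and the endocrine pancreas in vertebrates, had the largest positive log2 change among the named genes tested. It had 177, 559 and 859 CPM in sections 20, 21 and 22, against 30.9, 79.0, 82.2 and 72.4 CPM in sections 16, 17, 18 and 19. The log2 change was 2.99 ± 0.48 (adjusted p = 0.00594), the level was higher in each successive end section, and the groups did not overlap. Along the rest of the arm it averaged 7.67 ± 6.75 CPM in sections 1 to 11 and 6.69 ± 4.32 CPM in sections 12 to 15. In the oral-aboral series it averaged 180.0 ± 51.2 CPM in the inner sections and 13.4 ± 15.7 CPM in the outer sections (SD, n = 4 each). Irx and Nkx2.2 passed under each of the 20 other settings tried, with log2 changes from 1.99 to 3.14 for Irx and from 2.49 to 4.63 for Nkx2.2.

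FoxA, a forkhead factor of endoderm and gut, reached a high level late in the same stretch. It had 339.9, 858 and 1835 CPM in sections 20, 21 and 22, against 459, 565, 443 and 234 CPM in sections 16, 17, 18 and 19. The groups overlapped because section 20 lay within the range of sections 16 to 19, and the log2 change of 1.24 ± 0.47 did not pass (adjusted p = 0.146). With section 20 left out, FoxA rose (log2 change 1.65 ± 0.35, adjusted p = 0.00326). With section 22 left out, the change was 0.50 (adjusted p = 0.557), and it did not pass when any other section was left out (adjusted p = 0.232 to 0.282). Over the arm its mean was 15.1 ± 8.14 CPM in sections 1 to 11, 259 ± 201 CPM in sections 12 to 15, 431 ± 151 CPM in sections 16 to 19 and 1017 ± 769 CPM in sections 20 to 22. The gut and endoderm list had 3 matched genes, FoxA, Nkx2.2 and Nkx2.1, of which 1 rose (Nkx2.2) and 0 fell. The NK homeobox and columnar list had 4 tested genes, of which Nkx2.2 and Irx rose and 0 fell. Over all loci tested, 3.04% rose and 2.09% fell. These lists share Nkx2.2, and Irx is also in the anterior list.

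Lmx, a LIM-homeobox factor that patterns the dorsal limb in vertebrates, had 65.0, 83.9 and 134 CPM in sections 20, 21 and 22, against 30.9, 17.6, 36.5 and 42.6 CPM in sections 16, 17, 18 and 19. It rose with a log2 change of 1.58 ± 0.38 (adjusted p = 0.0328) and no overlap. Its call was lost when section 16, 17, 18, 21 or 22 was left out (log2 change 1.28 to 1.77 over the 7 fits, adjusted p up to 0.123). In sections 1 to 11 Lmx averaged 56.5 ± 16.6 CPM and reached 80.7 CPM, above its level in section 20.

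Hox genes did not move together. Hox1, the first gene of the cluster, had 91.6, 201 and 262 CPM in sections 20, 21 and 22, against 70.6, 41.0, 36.5 and 106 CPM in sections 16, 17, 18 and 19. It rose (log2 change 1.55 ± 0.41, adjusted p = 0.0491) although section 19 was above section 20. Hox8, a gene of the middle of the cluster, had 41.4, 8.39 and 3.54 CPM in sections 20, 21 and 22, against 92.7, 55.6, 82.2 and 85.2 CPM in sections 16, 17, 18 and 19. It fell (log2 change -2.17 ± 0.55, adjusted p = 0.0415), lowest in section 22 and without overlap. Each call depended on single sections: that of Hox1 was lost without section 16, 17, 18, 21 or 22 (adjusted p up to 0.171) and that of Hox8 without any 1 of sections 16 to 19, 21 or 22 (adjusted p up to 0.208). The Hox1 call was also lost with limma-trend (adjusted p = 0.0692) and, in edgeR, with the stricter low-count filter (0.0538). In edgeR, that of Hox8 was also lost by total count alone with PB.21421 kept (adjusted p = 0.0510). Without section 20 the change was 1.86 for Hox1 (adjusted p = 0.00117) and -3.45 for Hox8 (adjusted p = 0.000157).

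Hox8 had its highest levels of the arm in sections 16 to 19. On the scale of all 22 sections it averaged 17.4 ± 19.9 CPM in sections 20 to 22, 78.9 ± 14.5 CPM in sections 16 to 19, 24.95 ± 12.5 CPM in sections 12 to 15 and 18.0 ± 9.52 CPM in sections 1 to 11. Each of sections 16 to 19 lay above each of the first 15, whose highest value was 38.1 CPM. Of the 13 matched Hox genes, 6 were tested, with 1 rise and 1 fall, against 3.04% and 2.09% of all loci tested. Those that did not pass were Hox5, Hox7, Hox9-10 and Hox11-13b. Without section 20, Hox7 (log2 change -2.55 ± 0.83, adjusted p = 0.0381), Hox8 and Hox9-10 (-2.05 ± 0.58, adjusted p = 0.0193) fell, but none of them met the low-count filter in section 21 or 22, so their direction was set by entry to the test. Neither Hox7 nor Hox9-10 passed in the fits without another section in which it was tested. Hox4 was too sparse for the test, with 3, 16 and 8 counts in sections 20, 21 and 22, against 1, 3, 1 and 3 counts in sections 16, 17, 18 and 19.

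Among the 10 matched Wnt ligands, 6 were tested and 1 fell, against 2.09% of all loci tested. All 6 tested ligands (Wnt1, Wnt3, Wnt4, Wnt5, Wnt6 and Wnt7) had negative log2 changes, and 1 of them, Wnt3, passed. A negative sign was common, since the median log2 change over all loci tested was -0.02. Wnt6 and Wnt7 were far from passing (edgeR adjusted p = 0.516 and 0.560). Of the 5 ligands that met the low-count filter in both groups, 0 passed with edgeR. Unadjusted edgeR p was under 0.05 for 3 of these 5 (Wnt1, Wnt4 and Wnt5), and for 2161 of all 9499 loci tested. Wnt1 passed in DESeq2 (adjusted p = 0.0364) and limma-trend (0.0380). Wnt3, which acts at the posterior end of many bilaterian embryos, had 8.87, 3.36 and 0 CPM in sections 20, 21 and 22, against 26.5, 38.1, 18.3 and 51.1 CPM in sections 16, 17, 18 and 19. These values rest on 5 counts in sections 20 to 22 and 35 in sections 16 to 19. It fell with a log2 change of -2.93 ± 0.67 (adjusted p = 0.0259) and no overlap. None of sections 20 to 22 met the low-count filter, so Wnt3 was tested through sections 16 to 19 alone and could be called only as a fall. Without section 21 it did not pass (-2.70, adjusted p = 0.151), and without section 16, 17 or 19 it did not reach the low-count filter. Every earlier section was above all 3 end sections: Wnt3 averaged 63.3 ± 29.6 CPM in sections 1 to 11 and 42.4 ± 17.2 CPM in sections 12 to 15.

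Wnt1 and Wnt4 were still detected at 41.4 CPM each in section 20 and were under 10 CPM in sections 21 and 22. Wnt1, a ligand expressed at the midbrain-hindbrain boundary in vertebrates, had 41.4, 1.68 and 0 CPM in sections 20, 21 and 22, against 39.7, 87.8, 105 and 89.4 CPM in sections 16, 17, 18 and 19. Section 20 was above section 16, and the log2 change of -2.59 ± 0.76 did not pass (adjusted p = 0.0692). Sections 21 and 22 together held 1 count of Wnt1, against 83 counts in sections 16 to 19, a ratio of 71.4 (exact 95% interval 12.5 to 2852, counting error only) for the level in sections 16 to 19 over that in sections 21 and 22. Wnt1 fell in the fit without section 20 (adjusted p = 5.26e-05), where sections 21 and 22 did not meet the low-count filter. It did not pass when any other section was left out (adjusted p = 0.0998 to 0.271).

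Wnt4 had 41.4, 6.71 and 3.54 CPM in sections 20, 21 and 22, against 53.0, 52.7, 27.4 and 97.9 CPM in sections 16, 17, 18 and 19, with an adjusted p of 0.125. Wnt5, which acts mostly outside the beta-catenin branch of the pathway in vertebrates, had 82.8, 55.4 and 3.54 CPM in sections 20, 21 and 22, against 92.7, 111, 86.8 and 136 CPM in sections 16, 17, 18 and 19. All 3 end sections of Wnt5 were below the 4 others, and its adjusted p was 0.216. Without section 20, Wnt4 fell (log2 change -3.27 ± 0.62, adjusted p = 0.00153), Wnt5 fell (-1.60 ± 0.49, adjusted p = 0.0290), and Wnt6 fell with 3 counts left in sections 21 and 22 (adjusted p = 0.0287). Of these, only Wnt5 met the low-count filter in section 21 or 22; Wnt4 and Wnt6 were tested there through sections 16 to 19 alone. Wnt7 did not pass in either fit. In the fit without section 20, 10.2% of the 10300 loci tested fell. The ligands that fell numbered 5 there, 0 without section 16, 17, 19 or 21, and 1 without section 18 or 22. Only 2 ligands, Wnt5 and Wnt7, met the low-count filter in both groups of the fit without section 20. Of these, 1 fell (Wnt5). Wnt1 and Wnt3, like Wnt4 and Wnt6, could be called there only as falls.

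Of the 4 tested Wnt receptors and antagonists, 2 rose (Fzd5-8 and Sfrp1-5) and 0 fell, against 3.04% and 2.09% of all loci tested. Both genes that rose were already counted in the anterior list. Fzd1-2-7 had 127, 138 and 166 CPM in sections 20, 21 and 22, against 150.1, 141, 132 and 158 CPM in sections 16, 17, 18 and 19, and did not pass. Fzd9-10 had 53.2, 18.5 and 0 CPM in sections 20, 21 and 22, against 61.8, 67.3, 54.8 and 128 CPM in sections 16, 17, 18 and 19. Its groups did not overlap but its log2 change of -1.68 ± 0.62 did not pass (adjusted p = 0.137). Fzd4 was too sparse for the test, with 4, 17 and 9 counts in sections 20, 21 and 22, against 0 counts in all of sections 16 to 19 and 4 counts in sections 1 to 15. With sections 16 to 19 set at a floor of 3 counts over those 4 sections, its level over sections 20 to 22 was 8.40-fold that floor. This ratio leaves out the counting error of sections 20 to 22 and the spread between them, so it is not a lower bound.

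Without section 20, Fzd5-8 and Sfrp1-5 rose, as with it, and Fzd9-10 fell (-2.66 ± 0.59, adjusted p = 0.00434), which it did not when any other section was left out (adjusted p = 0.200 to 0.400). In that fit 9.90% of all loci rose and 10.2% fell. Of the list, 2 genes rose without section 19, 1 without section 16, 17, 18 or 22, and 0 without section 21 by edgeR. Sfrp3-4, another Wnt antagonist, was as sparse as Fzd4, with 1, 14 and 9 counts in sections 20, 21 and 22, against 0, 2, 1 and 2 counts in sections 16, 17, 18 and 19. Both genes met the low-count filter only without section 20, and there only in sections 21 and 22, so no call is given for them.

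**Figure D4:**
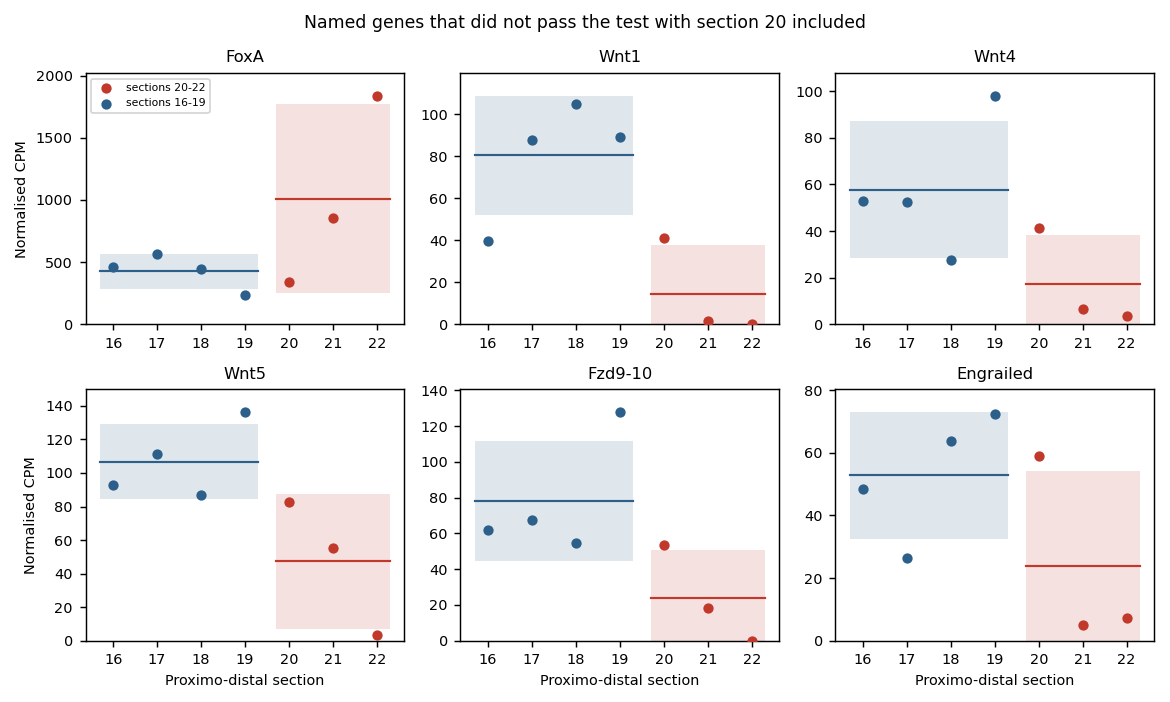
Normalised CPM in sections 16 to 22 of 6 named genes that did not pass the test with section 20 included, drawn as in the plot of genes that passed. In sections 21 and 22 Wnt1 is at 1.68 and 0 CPM and FoxA at 858 and 1835 CPM, while section 20 lies within the range of sections 16 to 19 for FoxA, Wnt1, Wnt4 and Engrailed.

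Tbx2-3, a T-box repressor, had 180.3, 129 and 28.3 CPM in sections 20, 21 and 22, against 393, 357, 301 and 383 CPM in sections 16, 17, 18 and 19. It fell (log2 change -1.65 ± 0.43, adjusted p = 0.0470), with each end section below all 4 others. Over the 19 preceding sections the means were 340.4 ± 49.6 CPM in sections 1 to 11, 359 ± 54.2 CPM in sections 12 to 15 and 359.8 ± 37.4 CPM in sections 16 to 19, and the lowest of them was 234 CPM. The call was lost without section 16, 17, 18, 19 or 21 (adjusted p up to 0.151) and also under both scalings by total count alone (-1.44, adjusted p = 0.0521, and -1.02, adjusted p = 0.0901). The stricter low-count filter (adjusted p = 0.0539) and the log2 library total as covariate (0.0976) lost it too.

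Engrailed, a homeobox factor of segment and midbrain-hindbrain boundaries, had 59.1, 5.04 and 7.07 CPM in sections 20, 21 and 22, against 48.6, 26.3, 63.9 and 72.4 CPM in sections 16, 17, 18 and 19. It did not pass (adjusted p = 0.316). It fell without section 20 (-3.07 ± 0.61, adjusted p = 0.00210), tested there through sections 16 to 19 alone, and did not pass when any other section was left out (adjusted p = 0.327 to 0.717). Of the midbrain-hindbrain boundary list, 6 genes were tested, 1 rose (Irx) and 0 fell, against 3.04% and 2.09% of all loci tested. FGF8-17-18, a secreted growth factor of the same list, had 70.9, 58.8 and 49.5 CPM in sections 20, 21 and 22, against 57.4, 49.8, 59.4 and 63.9 CPM in sections 16, 17, 18 and 19, and did not pass. None of the 5 tested BMP and dorsoventral genes (ADMP, BMP2-4, Chordin, Hedgehog and Tolloid) passed in either fit. Chordin, which binds BMPs outside the cell, had 85.7, 60.4 and 38.9 CPM in sections 20, 21 and 22, against 83.9, 76.1, 59.4 and 63.9 CPM in sections 16, 17, 18 and 19.

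In the trunk patterning list, which holds the Hox and Wnt genes above, 14 of 26 matched genes were tested, 1 rose (Hox1) and 2 fell (Wnt3 and Hox8), against 3.04% and 2.09% of all loci tested. The falls were 0 without section 16, 17, 19 or 21, 1 without section 18 or 22, and 9 without section 20, where 10.2% of all loci fell. Without section 20, only 5 genes of the list met the low-count filter in both groups, and of these 1 rose (Hox1) and 1 fell (Wnt5). Over all loci, leaving out section 20 gave 1020 rises and 1055 falls, against 289 and 199 with it, and 287 of the 289 rises and all 199 falls were among them. Of the 1020 rises and 1055 falls, 287 and 330 were loci that met the low-count filter in 1 group only.

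**Figure D5:**
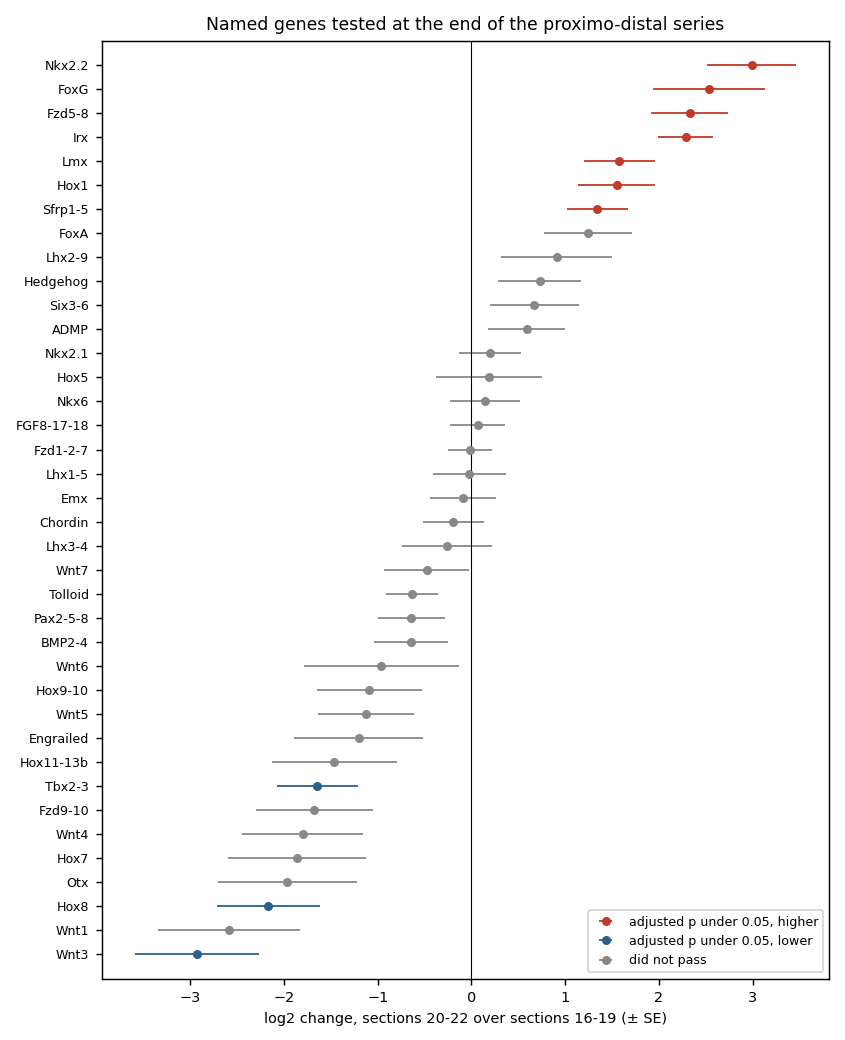
Log2 change of sections 20 to 22 over sections 16 to 19, with its SE, for the 38 named genes tested with edgeR; red genes rose, blue genes fell and grey genes did not pass. Nkx2.2 is at the top with 2.99 and Wnt3 at the bottom with -2.93. All 6 Wnt ligands lie left of 0, and of these only Wnt3 passed. The median over all loci tested is -0.02.

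The 29 named rows that were not tested held 258 counts in sections 20 to 22 and 169 in sections 16 to 19, and 5 of them had 0 counts in all 7 libraries. Dbx, a neural tube homeobox factor in vertebrates, had 2, 9 and 18 counts in sections 20, 21 and 22, against 1, 1, 0 and 2 counts in sections 16, 17, 18 and 19. Dmbx had 14, 22 and 4 counts in sections 20, 21 and 22, against 1, 6, 2 and 3 counts in sections 16, 17, 18 and 19. Wnt10 and Wnt9 were sparse in both groups, with 2 and 3 counts in sections 20 to 22, against 14 and 11 counts in sections 16 to 19. Their differences were not tested.

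Among loci without a symbol, the smallest p in each direction belonged to loci with sharp steps. V4_HAP1_PB.8374 had 627, 1415 and 1527 CPM in sections 20, 21 and 22, against 26.5, 41.0, 32.0 and 25.5 CPM in sections 16, 17, 18 and 19 (log2 change 5.21 ± 0.40, adjusted p = 0.000102). In the first 15 sections its highest value was 35.2 CPM. V4_HAP1_PB.8163 had 228, 515 and 470.2 CPM in sections 20, 21 and 22, against 22.1, 23.4, 22.8 and 17.0 CPM in sections 16, 17, 18 and 19 (4.21 ± 0.36, adjusted p = 0.000198). Both were already well above their neighbours in section 20.

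V4_HAP1_PB.3562 had 23.6, 13.4 and 14.1 CPM in sections 20, 21 and 22, against 155, 161, 109.6 and 80.9 CPM in sections 16, 17, 18 and 19, and fell (-2.90 ± 0.38, adjusted p = 0.00264). V4_HAP1_PB.11983 had 26.6, 13.4 and 0 CPM in sections 20, 21 and 22, against 146, 152, 155 and 183 CPM in sections 16, 17, 18 and 19, and fell (-3.48 ± 0.49, adjusted p = 0.00335). Unnamed loci of either direction were picked only if their groups did not overlap, so this trait is no result. The files and the gene table used here do not pair these identifiers with gene names.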

How the data were processed

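The authors deposited unnormalised counts, 1 row per transcript model and 1 column per library. The labels' protocols name Iso-Seq libraries of polyadenylated RNA; the mapping and counting tools and the genome build were not given in the sources used here. Columns were matched to sections by the code in their titles, and transcript models of the same locus were added up, which left 23869 loci from 25794 rows. Named rows carry another assembly tag than unnamed ones, so reads shared between them cannot be told apart. V4_HAP1_PB.21421 was left out before scaling. edgeR 4.0.16 in R 4.3.3 was used on the 7 libraries: filterByExpr (minimum count 5, minimum total 15), TMM and glmQLFTest, with Benjamini-Hochberg adjustment over all loci at 0.05. SEs follow from each log2 change and its F value. CPM were computed on TMM-scaled totals; values beside sections 1 to 15 were scaled over all 22 sections. Code was tested on simulated counts. The sections, gene lists and rules were chosen with earlier results of these data known. Genes named are those with a symbol that passed and list members averaging at least 20 CPM by range or value. Added to these are, per direction, the 2 unnamed loci with the smallest p among called loci whose groups did not overlap. FoxA, the sparse genes and the genes that passed only without section 20 were picked after their values were seen. So was the check of which group met the low-count filter. Alternatives included limma 3.58.1 and DESeq2 1.42.0.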

Additional observations from a re-analysis of the deposited data

How the results depend on the processing

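The counts of loci that rose and fell varied with the libraries more than with the tool. They were 289 and 199 as reported, and stayed within 1.5 times under DESeq2-style size factors, TMM with PB.21421 kept, a stricter low-count filter, DESeq2, limma-trend and unsummed transcript models. They were 562 (rises) by total count alone, 2235 (rises) by total count alone with PB.21421 kept, 796 and 561 with no low-count filter, 555 and 541 with all 22 sections in 1 fit, 122 and 44 against sections 17 to 19 (the same fit as leaving out section 16, counted once below), 812 and 939 with section 20 moved to its neighbours, 353 (falls) for a straight line over the 7 sections, and 121 and 67 with the log2 library total as covariate. Leaving out 1 section gave 85 to 1020 rises and 16 to 1055 falls. Counts were 122 and 44 without section 16, 97 and 36 without 17, 110 and 51 without 18, 276 and 283 without 19, 1020 and 1055 without 20, 85 and 16 without 21, and 189 and 136 without 22. The cause was not tested. No locus called as reported changed sign in any of these fits, apart from unsummed transcript models, where unnamed loci were not matched. The difference in the share of PB.21421 lay between -27.4 and -17.9 percentage points when 1 section was left out.

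Of 516 fits of 27 named genes under 20 alternatives, 436 kept their direction and side of the threshold, 47 lost the call, 30 gained it and 3 turned sign: BMP2-4 (0.0048), Pax2-5-8 (0.075) and Tolloid (0.059), none of them called, all under total count alone with PB.21421 kept. With the log2 library total as covariate in edgeR, Irx, Nkx2.2 and Lmx kept their calls. Fzd5-8 (adjusted p = 0.0524), Sfrp1-5 (0.0595), FoxG (0.119), Hox1 (0.106), Hox8 (0.203), Tbx2-3 (0.0976) and Wnt3 (0.0894) lost theirs. No paired analysis was possible because the section numbers of the 2 groups are different positions. Depth limits genes under about 10 CPM, where a single section holds a few counts. With 1 arm and 1 library per position, position, library and cutting order cannot be told apart.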
